A study of Medicago sativa with 9 samples.

Results

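Leaves of alfalfa (Medicago sativa, cultivar Kangsai) sprayed with selenite at either of 2 doses were set, as 6 libraries together, against 3 control libraries, which are the 9 libraries of the whole series. The low Se group (3 libraries) was labelled 100 mg/L and the high Se group (3 libraries) 500 mg/L, and the control group (3 libraries) carried the label CK. Every group was grown in the field, reached 20 cm in height before treatment and was sprayed 3 times at intervals of 7 days. What the control plants were sprayed with is not stated, and because the series text speaks of 3 selenite concentrations it is uncertain that control means no selenite at all. Both doses counted equally in the comparison, so that it measured the average of low Se and high Se against control. A large change in either dose can drive such an average. Of the 64684 transcripts predicted to be long non-coding RNAs (lncRNAs), those averaging 0.5 FPKM or more across all 9 libraries were tested, 43763 in number. FPKM, a measure of sequenced fragments, is a level already scaled for transcript length and library depth.

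Long non-coding RNAs are transcripts without a predicted protein product, and in plants some of them act on chromatin, on the splicing or stability of messenger RNAs, or as decoys for microRNAs. They tend to be expressed at low levels and in few tissues or conditions, and most of those found by assembly have no known role. Selenite is an inorganic form of selenium, which leaves reduce and build into amino acids by the enzymes of sulfur assimilation, and at high doses it causes oxidative stress. The transcripts fall into 5 classes by position. Intergenic ones lie outside annotated genes, intronic ones inside an intron, junction-sharing ones share a splice junction with a gene, sense-overlapping ones overlap an exon on the same strand, and antisense ones overlap an exon on the opposite strand. No annotation of the neighbouring or host genes was used here, so their functions are not given, and no genome was used here from which to print the transcripts.

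The aligned bases per library, estimated from the ratio of FPKM to coverage, were 1.68 to 2.97 gigabases in selenite libraries and 1.44 to 2.78 gigabases in control libraries. The aligned bases per tested transcript, its coverage times its length, had a median of 282 (low Se 3) to 1072 (high Se 2) in selenite libraries. In control libraries this median was 217 (control 3) to 859 (control 1), so single values of weak transcripts are imprecise. Of tested transcripts, 34.5%, 41.0% and 47.8% were listed at 0 in control 1, 2 and 3, and 30.4% to 43.8% in selenite libraries. Control 3 had the most aligned bases of the controls, 2.78 gigabases, and the highest share at 0. The reason was not tested. Whether replicate libraries were taken from different plants is not stated in the labels, and the p-values reflect no more than the variation among these samples, part or all of which may be technical. The labelled leaf could not be checked against marker genes, because the table lists lncRNAs only.

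Control 1 stood apart from the other controls. Across transcripts, its log2 levels had a correlation of 0.260 with control 2 and 0.259 with control 3. Control 2 and control 3 had 0.394 with each other. The 15 pairs of selenite libraries had 0.284 to 0.459, and the 18 pairs of 1 control and 1 selenite library had 0.227 to 0.301. Of the latter, those with control 1 had 0.271 to 0.301, each above its correlation with either other control. Those with control 2 had 0.252 to 0.289 and those with control 3 had 0.227 to 0.283. The typical transcript differed by 1.17 between control 2 and control 3 on the log2 scale, by 1.61 between control 1 and control 2 and by 1.68 between control 1 and control 3. Low Se 1 stood apart in the same way, with 0.303 and 0.307 against low Se 2 and low Se 3, which had 0.435 with each other, and 0.288 to 0.315 against high Se libraries. Results are given with and without control 1 where it decides them, and counts without both libraries are given as well. The reason for their standing apart was not tested.

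Very few lncRNAs passed the test of the doses averaged against control, and most of those were present under selenite and listed at or near 0 in control. Of 43763 transcripts, 14 rose (0.032%) and 2 fell (0.00457%), together 16 (0.0366%), at an adjusted p below 0.05 (limma with Benjamini-Hochberg adjustment over all tested transcripts). None of the 16 overlapped between the 6 selenite and the 3 control libraries. All 6 selenite libraries held every one of the 14 that rose, and 8 of those 14 were listed at 0 in every control. The filter on the mean favours such a pattern, because a transcript seen in selenite libraries alone enters at a mean of 0.75 FPKM there and one seen in controls alone needs 1.5 FPKM, so the balance of directions is not read further. The 16 comprised 10 intergenic, 2 intronic, 2 junction-sharing and 2 antisense transcripts and no sense-overlapping one; 9 were of 1 exon, and they were 253 to 1148 bases long. Among all tested transcripts, 66.8% were intergenic and 76.0% had 1 exon. In bulk leaf tissue, more or fewer cells that hold a transcript and more or less of it per cell cannot be told apart.

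The count and its balance rested on the setting and on single libraries. With 1 in place of 0.1 added to FPKM, 7 were higher and 18 lower, and without a variance trend 1 passed. Of all tested, 10, 2 and 3 transcripts passed when low Se 1, 2 and 3 were left out in turn, and 1, 2 and 5 when high Se 1, 2 and 3 were. With control 1 removed 542 passed, 4 with control 2 removed and 1 with control 3 removed. MSTRG.515.1 passed in 8 of these 9 fits, MSTRG.91813.1 in 6 and MSTRG.15485.1 in 4, while the other 13 passed in 0 to 2.

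**Figure D1:**
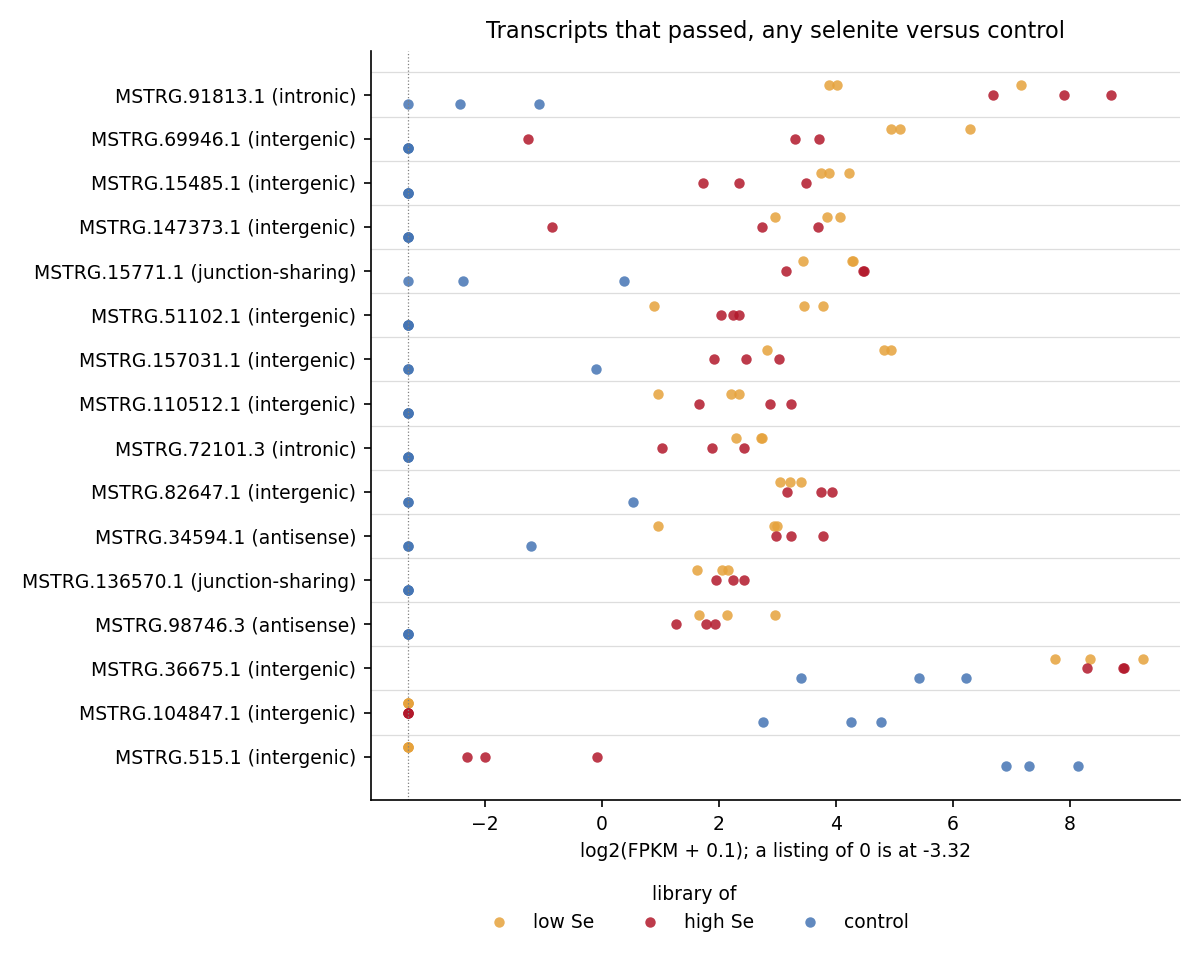
Level of each transcript that passed, as log2(FPKM + 0.1), in the 3 low Se, 3 high Se and 3 control libraries, 1 point per library, with the class in brackets. In each of the 14 transcripts that rose all selenite points lie to the right of all control points, and in MSTRG.515.1 and MSTRG.104847.1 all lie to the left.

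Of the 2 transcripts that fell, MSTRG.515.1 had the largest difference of the 16. It is an intergenic transcript of 1 exon and 1112 bases, with no strand given, at 67110 to 68221 of scaffold 15132. It was listed at 0 in all 3 low Se libraries and held 0.848, 0.149 and 0.102 FPKM in high Se, against 121, 158 and 284 FPKM in control. The transcript was thus abundant in each control and almost undetected under either dose. The log2 difference, any selenite minus control, was -9.85 ± 0.82 (SE; limma adjusted p = 8.22e-05). The doses, which share the same controls, gave -10.78 (adjusted p = 0.00018) for low Se and -8.92 (adjusted p = 0.00131) for high Se. A second intergenic transcript, MSTRG.104847.1 (chromosome 5.4, 62244435 to 62244759, 1 exon, 325 bases), was listed at 0 in all 6 selenite libraries, against 19.0, 6.63 and 27.2 FPKM in control. Its log2 difference was -7.25 ± 1.13 (limma adjusted p = 0.032), on a scale where a listing of 0 takes the value of the added 0.1.

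Among intergenic transcripts that rose, MSTRG.36675.1 was the most abundant. It lies on chromosome 2.3 at 12542599 to 12543677, has 1 exon of 1079 bases and no strand. Low Se libraries held 609.9, 324 and 215 FPKM and high Se libraries 479.7, 486 and 316 FPKM, against 10.5, 74.8 and 42.8 FPKM in control. The mean was 405 ± 145 FPKM under selenite (SD, n = 6) and 42.7 ± 32.1 FPKM in control (SD, n = 3), and the lowest selenite library stood well above the highest control. Its mean coverage was 455 to 1445 per base in selenite libraries and 26.9 to 119 in control libraries, so depth limits this value little. The log2 difference was 3.56 ± 0.54 (limma adjusted p = 0.032). Side by side, it was 3.43 (adjusted p = 0.0748) for low Se and 3.69 (adjusted p = 0.0622) for high Se, neither of which passed alone, against the same controls.

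The other 7 intergenic transcripts that rose were weak or listed at 0 in control. MSTRG.15485.1 (chromosome 1.2, minus strand, 73612197 to 73612695) held 13.4, 14.7 and 18.6 FPKM in low Se and 5.00, 11.1 and 3.23 FPKM in high Se, and was listed at 0 in all 3 controls. Its log2 difference was 6.56 ± 0.76 (limma adjusted p = 0.00284), with 7.28 for low Se and 5.85 for high Se. MSTRG.69946.1 (chromosome 4.1, 49415291 to 49416438) held 78.4, 30.7 and 34.0 FPKM in low Se and 13.01, 9.82 and 0.315 FPKM in high Se, and was listed at 0 in all 3 controls. Its difference was 7.00 ± 0.99 (limma adjusted p = 0.0217), and every low Se library was above every high Se library.

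MSTRG.51102.1 (chromosome 3.2, minus strand, 17884861 to 17885235) held 1.76 to 13.6 FPKM in the 6 selenite libraries, with a median of 4.80, and was listed at 0 in all 3 controls. MSTRG.147373.1 (chromosome 8.2, 59463173 to 59463426) held 0.454 to 16.6 FPKM under selenite, with a median of 10.2, and was listed at 0 in all 3 controls as well. MSTRG.110512.1 (chromosome 6.2, plus strand, 26352356 to 26353352, 2 exons) held 1.84 to 9.35 FPKM under selenite, with a median of 4.76, against a listing of 0 in every control. These 3 had no control signal at all, so their differences of 5.78, 6.06 and 5.54 depend on the added 0.1 (limma adjusted p = 0.032, 0.0399 and 0.032). For the remaining pair, 1 of the 3 controls, control 1, held some signal. MSTRG.157031.1 (chromosome 8.4, 51991809 to 51992061) held 7.01, 30.8 and 28.1 FPKM in low Se and 8.11, 5.43 and 3.69 FPKM in high Se, against 0.828, 0 and 0 FPKM in control. MSTRG.82647.1 (chromosome 4.3, minus strand, 89946806 to 89947508, 2 exons) was more even, with 10.5, 9.18 and 8.18 FPKM in low Se and 15.2, 13.4 and 8.84 FPKM in high Se, against 1.35, 0 and 0 FPKM in control. Both had a limma adjusted p of 0.032, with differences of 5.59 ± 0.88 and 5.46 ± 0.87.

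Of intronic transcripts, 2 rose and none fell. MSTRG.91813.1, in an intron of host gene MS.gene47024 on chromosome 5.1 (minus strand, 69642576 to 69642990), had the largest rise of the 14. It held 143, 16.04 and 14.6 FPKM in low Se and 419.6, 103 and 239 FPKM in high Se, against 0.373, 0.0871 and 0 FPKM in control. Low Se 1 lay within the range of the high Se libraries, and the other low Se libraries lay below it. The log2 difference was 8.66 ± 0.77 (limma adjusted p = 0.000107), 7.29 for low Se and 10.04 for high Se. The second, MSTRG.72101.3, is a spliced transcript of 3 exons inside host gene MS.gene06103 (chromosome 4.2, plus strand, 4096307 to 4097448). It held 6.48, 4.81 and 6.60 FPKM in low Se and 5.29, 3.60 and 1.93 FPKM in high Se, and was listed at 0 in all 3 controls. Its difference was 5.50 ± 0.86 (limma adjusted p = 0.032). Overlapping forms of its locus, MSTRG.72101.1 and MSTRG.72101.2, held 0.689 and 0.682 FPKM in control 1, with differences of 0.48 ± 1.53 and 0.65 ± 1.51. Reads can be split differently between such forms, which leaves these values uncertain.

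Both junction-sharing transcripts that passed rose, and their values in low Se and high Se overlapped. MSTRG.15771.1, at host gene MS.gene34399 on chromosome 1.2 (minus strand, 76444772 to 76445678, 2 exons), held 19.4, 19.5 and 10.7 FPKM in low Se and 8.73, 22.04 and 22.3 FPKM in high Se, against 0.0918, 1.21 and 0 FPKM in control. Its difference was 5.79 ± 0.81 (limma adjusted p = 0.0217), with 5.78 for low Se and 5.81 for high Se. MSTRG.136570.1, at host gene MS.gene055160 on chromosome 7.4 (minus strand, 39484129 to 39484894, 2 exons), had the smallest spread under selenite of the 14 that rose. It held 2.98, 4.34 and 4.03 FPKM in low Se and 4.65, 3.75 and 5.26 FPKM in high Se, a mean of 4.17 ± 0.782 FPKM (SD, n = 6), and was listed at 0 in all 3 controls (difference 5.39 ± 0.85; limma adjusted p = 0.032). Reads at a junction shared with a gene can be split differently between transcripts of the locus, which leaves both values uncertain.

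Antisense transcripts contributed 2 that rose. MSTRG.34594.1, opposite host gene MS.gene02038 on chromosome 2.2 (minus strand, 58835095 to 58836649, 2 exons), held 7.57, 1.84 and 7.90 FPKM in low Se and 7.77, 13.7 and 9.35 FPKM in high Se, against 0.330, 0 and 0 FPKM in control (difference 5.44 ± 0.85; limma adjusted p = 0.032). MSTRG.98746.3, opposite host gene MS.gene45098 on chromosome 5.3 (minus strand, 24063304 to 24065095, 3 exons), held 4.32, 7.66 and 3.08 FPKM in low Se and 3.74, 2.31 and 3.35 FPKM in high Se, and was listed at 0 in all 3 controls (difference 5.28 ± 0.88; limma adjusted p = 0.0491). The protocol marked the second strand with dUTP, yet how strand was used in assembly and counting is not given in the sources used here, so reads of an antisense transcript and of its host gene may not be fully separated. Alfalfa chromosomes come in 4 homologous copies, and any of these transcripts may also share reads with a near-identical copy elsewhere.

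Some transcripts came close without passing. The closest that was lower was intergenic MSTRG.25624.1 on chromosome 1.4, listed at 0 in all 6 selenite libraries against 4.73, 13.5 and 22.3 FPKM in control (-6.83 ± 1.16; limma adjusted p = 0.0517). The sense-overlapping transcript with the smallest p that was higher was MSTRG.114408.1 at host gene MS.gene80424 on chromosome 6.3, with 7.62 to 16.3 FPKM in the 6 selenite libraries against 1.14, 0.515 and 1.35 FPKM in control (3.51 ± 0.63; limma adjusted p = 0.0716). The groups did not overlap in either case. MSTRG.47800.1 (intergenic, chromosome 3.1) held 0 to 2.91 FPKM under selenite against 15.4, 12.2 and 63.9 FPKM in control (-6.42 ± 1.20; limma adjusted p = 0.0875). Intronic MSTRG.156684.1 at MS.gene65033 held 0 to 0.506 FPKM under selenite against 11.01, 7.96 and 9.11 FPKM in control (-5.33 ± 1.01; limma adjusted p = 0.0995). For the other classes, the lower transcript with the smallest p was less sure. Sense-overlapping MSTRG.43365.1 had -5.55 ± 1.10 (limma adjusted p = 0.115), antisense MSTRG.153314.2 had -2.15 ± 0.46 (limma adjusted p = 0.151) and junction-sharing MSTRG.15861.2 had -5.27 ± 1.19 (limma adjusted p = 0.173). Antisense MSTRG.153314.2 was the one of these 3 that both sides expressed well, at 25.1 to 109 FPKM in selenite libraries and 161, 204 and 397 FPKM in control. MSTRG.43365.1 (371 bases) and MSTRG.153314.2 (230 bases) have 2 exons each, and they span 344237 and 154639 bases.

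For none of the 16 transcripts did the doses differ past the threshold. High Se minus low Se ranged from -3.53 to 2.75 on the log2 scale among them, with standard errors of 0.62 to 1.30 and a limma adjusted p of 0.461 to 1, while over all tested transcripts 9 passed (0.0206%). At an unadjusted p below 0.05, 2 of the 16 differed between the doses, against 7.84% of all tested transcripts. They were MSTRG.69946.1, lower in high Se (-3.53 ± 1.14; limma adjusted p = 0.461), and MSTRG.91813.1, higher in high Se (2.75 ± 0.89; limma adjusted p = 0.463). With standard errors of this size, a missing call does not show that the doses acted alike.

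**Figure D2:**
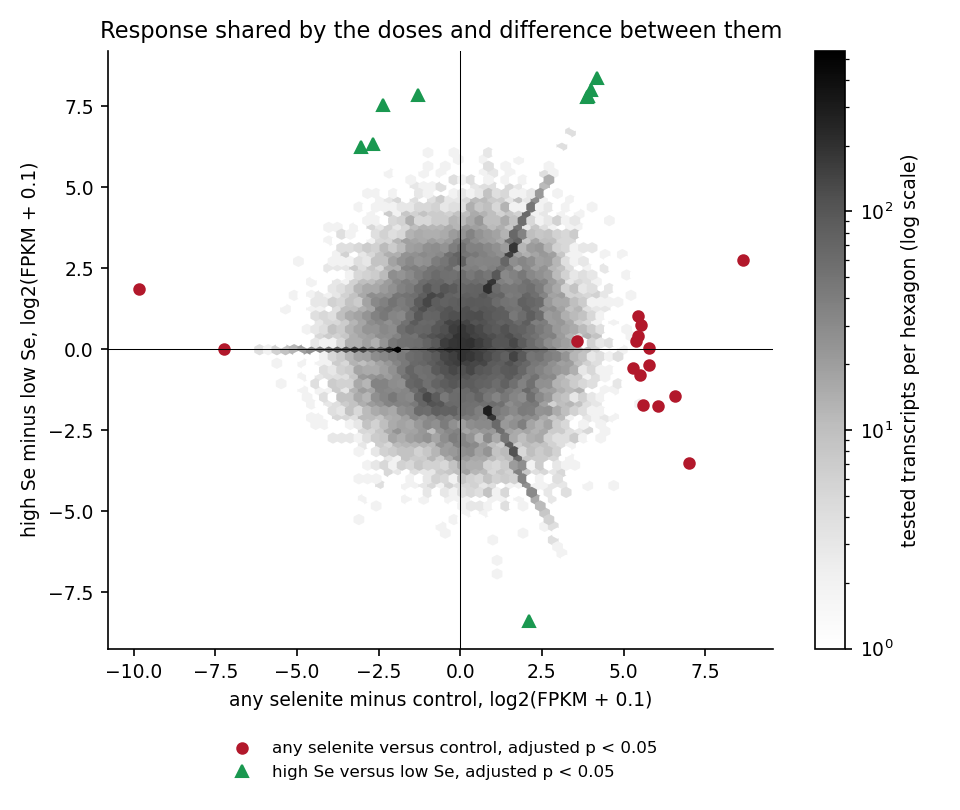
Difference between any selenite and control (horizontal axis) against the difference between high Se and low Se (vertical axis) for the tested transcripts, both as log2(FPKM + 0.1). Hexagons are shaded by the number of transcripts in them. Circles mark transcripts that passed in any selenite versus control, and triangles those that passed in high Se versus low Se. The circles lie far from 0 on the horizontal axis, from -9.85 to 8.66, and between -3.53 and 2.75 on the vertical one.

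Separation of the groups was also counted whatever the p. Selenite and control libraries did not overlap in 1292 transcripts (2.95%), the 16 that passed included. In 601 of them (1.37% of all tested) every selenite library exceeded every control, and in 691 (1.58% of all tested) every selenite library was below every control. The median log2 difference was 3.14 in the 601 and -3.41 in the 691, with a median of the mean level of 1.64 and 1.37 FPKM, so most were weak transcripts. High Se and low Se differed at an unadjusted p below 0.05 in 8 of the 601 (1.33%) and 32 of the 691 (4.63%), against 7.84% of all tested; groups that do not overlap tend to have little spread within selenite, so this is a description only. Of the tested transcripts, 185 (0.423%) were above 0 in all 6 selenite libraries and listed at 0 in every control, and 113 (0.258%) were listed at 0 in all 6 selenite libraries and above 0 in every control. The same filter bears on these 2 counts. By class, the 185 held 124 intergenic, 43 intronic, 5 junction-sharing, 6 sense-overlapping and 7 antisense transcripts. The 113 held 96 intergenic, 12 intronic, 2 junction-sharing, 0 sense-overlapping and 3 antisense transcripts. Intergenic transcripts thus made up most of both sets, as they did of all tested transcripts.

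Across all tested transcripts the response was small and slightly above 0. The median log2 difference of any selenite minus control was 0.19, with 0.00 for low Se and 0.26 for high Se, which share the controls. It was 0.16 after rescaling by the median of ratios and 0.10 after quantile normalization, and 0.02 to 0.44 with 1 library left out, the lowest without control 3 and the highest without control 1. At an unadjusted p below 0.05, 2080 transcripts (4.75%) were higher and 1881 (4.3%) lower. That balance turned without control 3 (3.12% higher, 4.12% lower) and without low Se 2 (4.36% higher, 4.49% lower). The number of transcripts detected above 0 was 28093 to 36453 in selenite libraries (32948 ± 3108; SD, n = 6) and 26121 to 34512 in control libraries (30047 ± 4221; SD, n = 3), ranges that overlapped. The difference of 2901 had p = 0.274 in a two-sided exact permutation test over the 84 ways to split the libraries, where 0.0119 is the smallest possible.

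Sense-overlapping and antisense transcripts leaned upward more than the other classes. Among 1335 sense-overlapping transcripts, 7.49% were higher and 3.52% lower at an unadjusted p below 0.05, and the median difference was 0.43, which became 4.79% higher, 3.22% lower and 0.16 without control 3. Antisense transcripts (994) had 7.75% higher and 4.83% lower, with a median of 0.30, which became 5.23%, 4.63% and 0.09 without control 3. With all 9 libraries both stood above the background of 4.75% higher. The medians of both classes lay above that of all tested transcripts in each of the 9 fits with 1 library left out, by 0.14 to 0.26 for sense-overlapping and by 0.06 to 0.15 for antisense, and under both rescalings. Intergenic transcripts (29241) had 4.74% higher and 4.70% lower with a median of 0.17, close to the background of which they form the greater part. Intronic transcripts (10171) had 4.34% higher and 3.46% lower with a median of 0.21. Junction-sharing transcripts (2022) moved least, with 3.81% higher and 3.02% lower and a median of 0.12, below that of all tested in each of the 9 fits. These shares describe the classes and carry no test of their own.

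**Figure D3:**
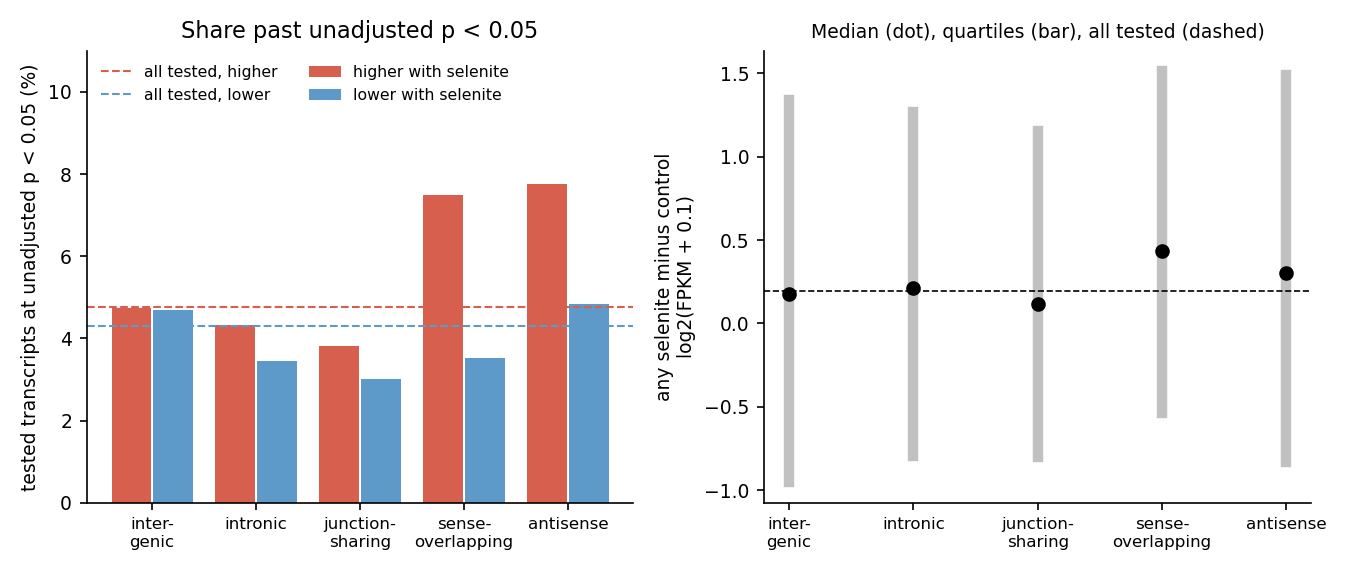
Left, share of tested transcripts of each class at an unadjusted p below 0.05, higher or lower in any selenite than in control, with dashed lines for all tested transcripts (4.75% higher, 4.3% lower); right, median and quartiles of the log2 difference by class, with the dashed line at the median of all tested. Sense-overlapping and antisense transcripts exceed the dashed line for higher values, at 7.49% and 7.75%.

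Counted over libraries, the make-up of the detected lncRNAs was nearly the same in both groups. Sense-overlapping transcripts formed 3.34 ± 0.0579% of those detected in selenite libraries (SD, n = 6) and 3.22 ± 0.0696% in control libraries (SD, n = 3), with every selenite library above every control. The exact permutation p was 0.0119, the smallest that 84 splits can give, and 0.0595 after Benjamini-Hochberg adjustment over the 5 classes. With the other classes at larger p, no separation of this class could give less than 0.0595. The test could thus not pass it, and missing the threshold decides nothing. Without low Se 1 the adjusted p was 0.0357, and with any 1 of the other libraries left out it was 0.0536 to 0.214. Leaving out a control gives fewer splits, and leaving out a selenite library gives doses of unequal size, between which libraries are also exchanged. The smallest possible p thus differs between these fits, and passing or missing the threshold in them decides nothing. Intergenic transcripts formed 65.7% under selenite and 66.1% in control (exact permutation p = 0.131), and intronic ones 23.9% and 23.4% (exact p = 0.155). For junction-sharing transcripts the shares were 4.76% under selenite and 4.90% in control (exact p = 0.286), and for antisense ones 2.34% and 2.32% (exact p = 0.821). The widest gap of the 5, that of intergenic transcripts, was -0.446 percentage points, selenite minus control.

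The shares also varied with structure and level. Those with 3 or more exons were higher in 5.72% and lower in 2.86% at an unadjusted p below 0.05, those with 2 exons in 5.51% and 3.91%, and those with 1 exon in 4.50% and 4.50%. By strand, transcripts on the plus strand were higher in 5.25% and lower in 3.33%, those on the minus strand in 5.44% and 3.38%, and those without a strand in 4.44% and 4.80%. The share of higher transcripts exceeded that of lower ones in each of the 9 fits with 1 library left out for 2 exons, for 3 or more exons and for transcripts with a strand, but not for those of 1 exon or without a strand. The medians differed little, at 0.18 for 1 exon, 0.22 for 2 exons, 0.26 for 3 or more exons and 0.18 without a strand. Short transcripts of under 300 bases were more often lower, with 3.86% higher and 5.19% lower, while those of 300 to under 1000 bases had 5.36% and 3.84% and those of 1000 bases or more 4.95% and 3.01%. By mean level, transcripts of 0.5 to 1 FPKM had 1.76% higher and 3.63% lower, those of 1 to 5 FPKM 6.82% and 4.73%, those of 5 to 50 FPKM 9.93% and 5.42%, and those of 50 FPKM or more 6.67% and 7.41%. The weakest band was thus the one with the smallest share past the threshold. The bands were cut on the mean over the tested libraries, most of which were selenite. At the same mean, a transcript seen in control alone has a higher level there than one seen under selenite alone has under selenite. The balance of directions within a band is therefore partly set by the banding and is not read further.

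The most abundant lncRNAs did not pass. The 5 with the highest mean over the 9 libraries were MSTRG.91972.1, MSTRG.100870.1, MSTRG.91972.2, MSTRG.105411.1 and MSTRG.21071.1. MSTRG.91972.1 averaged 70068 ± 15053 FPKM under selenite (SD, n = 6) and 76553 ± 10222 FPKM in control (SD, n = 3), a log2 difference of -0.15 ± 0.31 (limma adjusted p = 0.896). MSTRG.100870.1 averaged 35786 ± 4184 FPKM under selenite and 30502 ± 14354 FPKM in control, 0.32 ± 0.34 (limma adjusted p = 0.761). Both log2 differences were smaller in size than their standard errors. MSTRG.91972.2 had 0.66 ± 0.48 (limma adjusted p = 0.667) and MSTRG.105411.1 had 0.10 ± 0.31 (limma adjusted p = 0.934). MSTRG.21071.1 was listed at 0 in low Se 1, high Se 2 and control 3 and held high values elsewhere, which gave 0.07 ± 4.17 (limma adjusted p = 0.998).

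By position, the transcripts that passed were scattered. The 16 lay on 14 chromosomes, from all 8 homologous groups, and on 1 scaffold. The share of tested transcripts at an unadjusted p below 0.05 in either direction ran from 7.82% on chromosome 2.3 to 10.9% on chromosome 6.3, with 7.46% on the unplaced scaffolds, against 9.05% of all tested. Chromosome group 6 had the highest share of lower transcripts. Its 4 copies had 5.24% to 5.88% lower, against 4.3% of all tested, and group 5 had 3.29% to 3.94% on its 4 copies. In group 6 the median difference was 0.11, below that of all tested in each of the 9 fits with 1 library left out, and its share of lower transcripts was 3.802% to 6.17% in those fits. The 4 copies of a group can share reads, so they are not independent of each other. Along the chromosomes, cut into 5 equal parts, the middle part had 4.24% higher and 5.26% lower, whereas the part at the start had 4.79% higher and 3.83% lower. Since the balance over all tested transcripts turned without control 3, these shares are a description of the 9 libraries.

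**Figure D4:**
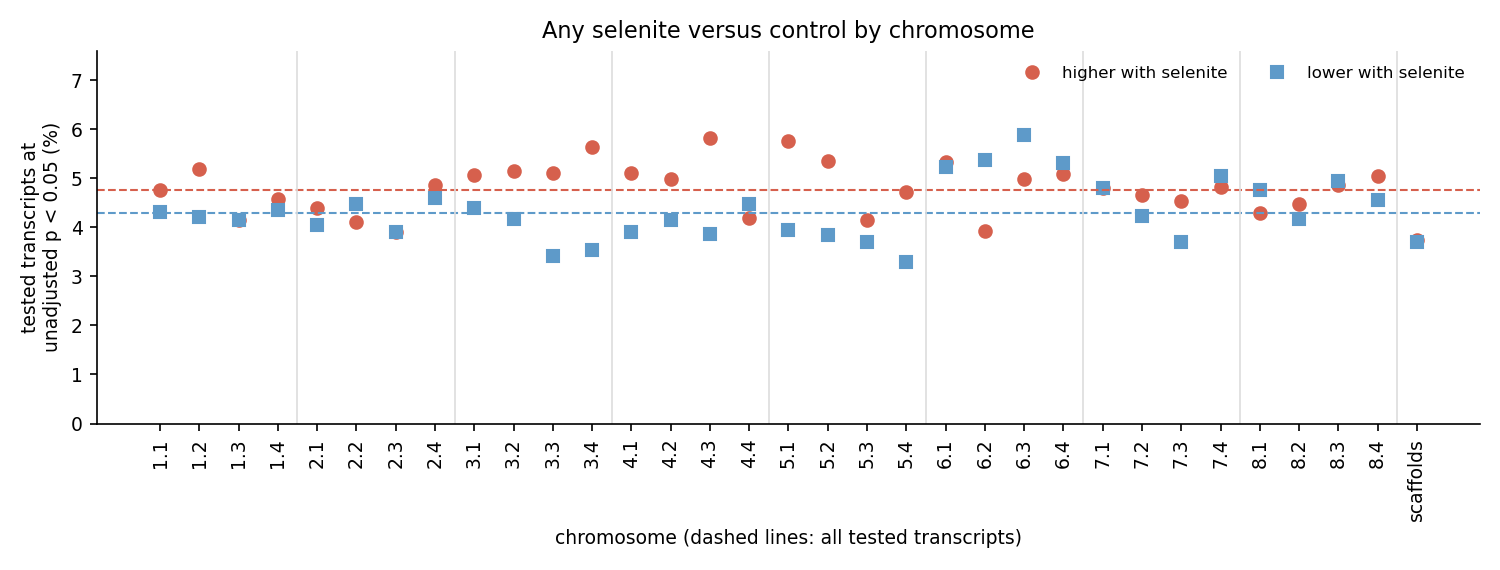
Share of tested transcripts at an unadjusted p below 0.05, higher or lower in any selenite than in control, for each chromosome and the unplaced scaffolds, with dashed lines at the shares of all tested transcripts (4.75% higher, 4.3% lower). The 4 copies of group 6 lie above the dashed line for lower values, at 5.24% to 5.88%.

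At 9 of 11078 host genes with a tested lncRNA, 3 or more lncRNAs moved the same way at an unadjusted p below 0.05. At 5 of the 9 they moved upward and at 4 downward. Hosts with fewer than 3 tested lncRNAs cannot show this. Those with 3 or more were not counted, so no fitting share can be given for the 9 hosts. Over all tested transcripts 4.75% were higher and 4.3% lower, and these hosts were picked for the pattern, which is therefore a description. Host gene MS.gene80424 on chromosome 6.3 had 3 of its 4 tested transcripts higher, from both strands of one interval. Beside sense-overlapping MSTRG.114408.1, described above, sense-overlapping MSTRG.114406.1 (plus strand, 29701228 to 29779269) held 1.53 to 2.65 FPKM in the 6 selenite libraries against 0.483, 0.347 and 0.477 FPKM in control. Antisense MSTRG.114407.1 (minus strand, 29701421 to 29779442) held 1.12 to 5.10 FPKM under selenite against 0, 0 and 0.772 FPKM in control. All 3 were separated between the groups, with differences of 2.08 to 3.83, and the lowest limma adjusted p was 0.0716. Both strands have transcripts over nearly the same interval, so reads assigned to the wrong strand could be shared between them, and this was not tested. MSTRG.114408.1 has 2 exons of 378 bases in all over a span of 77635 bases. MSTRG.114406.1 and MSTRG.114407.1 have 786 and 766 bases in 2 exons each. A shared interval thus need not mean shared exons, and whether exons so far apart were joined correctly was not tested.

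MS.gene45098 on chromosome 5.3 had all 3 of its tested antisense transcripts higher, and none had any control signal. MSTRG.98746.1 (8 exons, 24063304 to 24069326) held 1.42, 11.7 and 5.28 FPKM in low Se and 2.20, 3.62 and 6.02 FPKM in high Se, and was listed at 0 in all 3 controls (5.37 ± 0.95; limma adjusted p = 0.0617). MSTRG.98746.2 (5 exons) held 0 to 6.72 FPKM under selenite and was also listed at 0 in all 3 controls (3.61 ± 1.38; limma adjusted p = 0.484). With MSTRG.98746.3, which passed, these are 3 assembled forms of 1 locus that share exons and reads. Host gene MS.gene88410 on chromosome 8.3 had 3 of 5 tested transcripts higher, again from both strands. Its antisense MSTRG.152445.1 held 2.32, 21.0 and 12.6 FPKM in low Se and 1.70, 4.56 and 1.46 FPKM in high Se, against a listing of 0 in all 3 controls (5.50 ± 0.95; limma adjusted p = 0.0589). Sense-overlapping MSTRG.152446.1 at the same host held 1.89, 14.4 and 13.6 FPKM in low Se and 1.83, 1.495 and 0.332 FPKM in high Se, against 0.0521, 0.0463 and 0.0239 FPKM in control (4.34 ± 1.02; limma adjusted p = 0.189). For both, low Se 2 and low Se 3 were above the other selenite libraries. MSTRG.152445.1 (57036924 to 57132682) and MSTRG.152446.1 (57036924 to 57141595) have only 813 and 1059 bases, in 2 exons each.

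**Figure D5:**
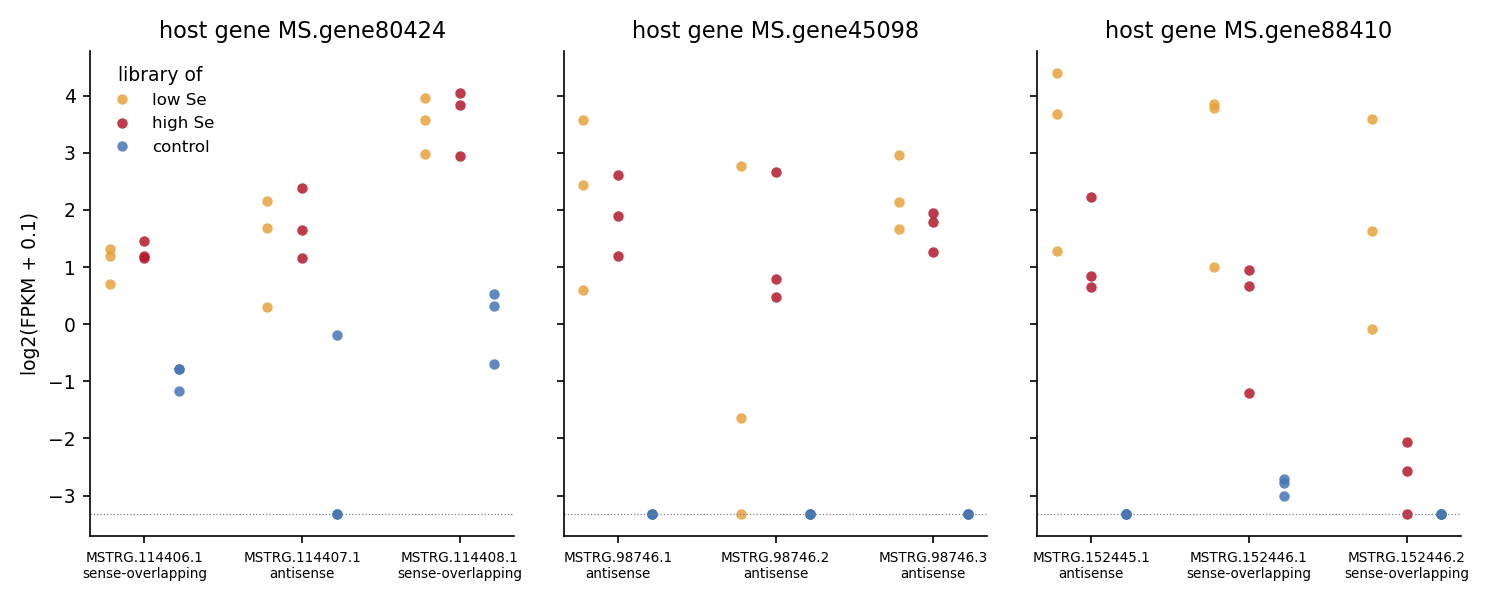
Level of the lncRNAs that moved the same way at host genes with 3 or more of them, as log2(FPKM + 0.1), 1 point per library of low Se, high Se and control, with 1 panel per host gene drawn. At MS.gene80424 the selenite points of all 3 transcripts lie above the control points.

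The other upward hosts had weaker support. At MS.gene06103 on chromosome 4.2, MSTRG.72106.1 and MSTRG.72109.1 accompanied MSTRG.72101.3, with 0 to 5.12 and 0.169 to 4.26 FPKM under selenite, and both overlapped with control 1, which held 0.769 and 0.632 FPKM; 3 of the 8 tested transcripts there were higher. MS.gene44724 on chromosome 7.2 had all 3 of its tested intronic transcripts higher within 81065075 to 81067733. MSTRG.128240.1 held 0.0630 to 3.798 FPKM under selenite and 0 in all 3 controls, MSTRG.128241.1 held 0 to 6.46 FPKM and 0 in all 3 controls, and MSTRG.128242.1 held 0.221 to 3.98 FPKM against 0, 0.421 and 0 FPKM in control. The lowest limma adjusted p of the 3 was 0.470. One intergenic locus showed the same kind of pattern without a host: all 5 tested forms of MSTRG.42531 on chromosome 2.4 (plus strand, 42182965 to 42184879) were higher at an unadjusted p below 0.05, with differences of 2.92 to 4.84 and a lowest limma adjusted p of 0.284. There control 1 was listed at 0 for all 5, while control 2, control 3 or both lay within the selenite range for 4 of the 5.

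Values at the downward hosts were uneven between libraries. MS.gene018887 on an unplaced scaffold had 3 of 7 intronic transcripts lower, of which MSTRG.5463.1 held 0, 0 and 0 FPKM in low Se and 2.54, 1.04 and 0 FPKM in high Se, against 9.55, 11.5 and 5.02 FPKM in control (-5.00 ± 1.15; limma adjusted p = 0.182). At MS.gene67190 on chromosome 1.2, 3 of 6 antisense forms were lower, of which MSTRG.14244.2 held 0 to 2.87 FPKM under selenite against 22.3, 13.5 and 6.12 FPKM in control (-4.65 ± 1.27; limma adjusted p = 0.264). These 2 transcripts did not overlap between the groups. MSTRG.23591.1, 1 of 3 antisense forms at MS.gene053366 on chromosome 1.4 that were all lower, held 0 to 10.2 FPKM under selenite against 8.26, 16.8 and 24.2 FPKM in control (-3.07 ± 0.97; limma adjusted p = 0.359), and high Se 1 lay within the control range. At MS.gene36088 on chromosome 8.3, 5 of 6 intronic transcripts were lower, but 4 of those 5 were listed at 0 in control 1 as in nearly all selenite libraries, so the difference rested on control 2 and control 3. MSTRG.152264.1 was the one of the 5 with signal in control 1, at 0 to 0.857 FPKM under selenite against 0.838, 6.26 and 9.68 FPKM in control.

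Most transcripts close to those that passed did not themselves reach an unadjusted p below 0.05. Within 50 kb, 13 of the 16 had at least 1 other tested transcript, 50 pairs in all. Of the 10 neighbours from the same host or locus, which can share reads, 5 were higher at an unadjusted p below 0.05, and their median difference was 2.49. Of the 40 others, 3 were higher and 1 lower, with a median of 0.82. Over all tested transcripts 4.75% were higher and 4.3% lower, with a median of 0.19, so the counts among the 40 were near the background.

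Without control 1, 542 transcripts passed (1.24%), 162 of them higher (0.37%) and 380 lower (0.868%), so the balance between the directions changed as well as the number. Of the 16, 15 were among them, the exception being MSTRG.147373.1 (limma adjusted p = 0.0552). Most of the 380 were transcripts that control 2 and control 3 held and the selenite libraries lacked: 339 were listed at 0 in all 6 selenite libraries. Counted separately, 264 of the 380 were listed at 0 in control 1. In 272 of the 380, control 1 lay within the range of the selenite libraries. They were largely of 1 exon (315) and without strand (306). Of the 162 that were higher, 130 were listed at 0 in both other controls, and control 1 lay within the selenite range in 76 and below it in 69. Antisense transcripts were called higher in 1.31% and lower in 0.905%, sense-overlapping ones in 0.899% and 0.3%, intergenic ones in 0.321% and 1.07%, intronic ones in 0.354% and 0.452%, and junction-sharing ones in 0.346% and 0.396%. Sense-overlapping and antisense transcripts were again more often higher, whereas intergenic transcripts were more often lower.

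Examples show how far control 1 could differ. They were chosen from the calls made without control 1, after their values were seen. MSTRG.110357.3, an intergenic transcript of 5 exons on chromosome 6.2 (22399135 to 22450304), held 24.3, 15.3 and 39.3 FPKM in low Se and 28.7, 12.3 and 20.7 FPKM in high Se, against 17.0, 3286 and 3647 FPKM in control. Control 1 was at the selenite level, and the other two were far above it. The log2 difference was -7.31 without control 1 (limma adjusted p = 0.0121) and -4.75 with it (limma adjusted p = 0.215). In the other direction, junction-sharing MSTRG.136570.3 at MS.gene055160 held 6.74, 6.56 and 13.2 FPKM in low Se and 5.37, 5.77 and 9.22 FPKM in high Se, against 7.12, 0 and 0 FPKM in control. Its neighbour at the same host, MSTRG.136570.1, was listed at 0 in control 1 as well.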

How the data were processed

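Total RNA of leaves, depleted of ribosomal RNA and marked with dUTP in the second strand, was sequenced in 9 libraries, per the labels' protocols. Bowtie2, edgeR, HISAT2 and StringTie were used, per the submitters' processing notes, in roles and versions that are not stated. Genome build, annotation and strand setting: not given in the sources used here, so coordinates are those of the deposited table. The authors deposited FPKM per transcript and library, per the file headers, with 0.0001 in place of 0, which was set back to 0. The deposited coverage, a signal per base, was used only to estimate aligned bases and to describe the depth of MSTRG.36675.1. Deposited CPC and CNCI scores are at most 0.493 and below 0, and 71.1% of transcripts carry no strand. Class codes were read in the sense of StringTie assemblies. The depth in reads is not given, so no counting interval is printed.

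All 9 libraries entered a limma model of 3 groups with a variance trend (limma 3.58.1, R 4.3.3) on log2(FPKM + 0.1), and the contrast was the mean of low Se and high Se minus control. The filter kept transcripts averaging 0.5 FPKM or more. Differences are on that scale, which understates changes of weak transcripts, and p-values were adjusted by Benjamini-Hochberg over all 43763. Library measures were compared by two-sided exact permutation tests. The members, lists and tests were chosen with earlier results of these data known. Named were up to 15 transcripts per direction with the largest difference among those that passed, with a mean of at least 1 FPKM on the higher side and no overlap between groups. Where fewer than 5 passed, those with the smallest p filled up to 5. Added were the smallest p per class and direction, the 5 most abundant transcripts, the chromosomes with the highest and lowest share, and host genes or loci with 3 or more transcripts at an unadjusted p below 0.05 one way. The recovery of added changes by the fit was checked on simulated data. Unlike the deposited values, these had normally distributed noise and no floor at 0. That check therefore does not show how often such calls are false. Of 11078 host gene names, 0 matched the gene table at hand (assembly Bolivia_mono). Alternatives covered the pseudocount, filter, scaling, variance model, library weights, grouping, a replicate block, a lenient threshold and each library left out. Other steps used pandas 2.3.3, SciPy 1.17.1, matplotlib 3.10.9 and NumPy 2.4.6 in Python 3.11.15.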

Additional observations from a re-analysis of the deposited data

Results flagged for a closer look

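Among the transcripts named above, each with varying selenite values was checked for a selenite library far from the other 5 on the log2 scale. In MSTRG.34594.1, the antisense transcript at MS.gene02038, low Se 2 held 1.84 FPKM, far below the other selenite libraries at 7.57 to 13.7 FPKM. In MSTRG.147373.1, the intergenic transcript on chromosome 8.2, high Se 1 held 0.454 FPKM, far below the other selenite libraries at 6.57 to 16.6 FPKM. Both low libraries were still above every control. In MSTRG.23591.1, the antisense transcript at MS.gene053366, low Se 3 was listed at 0, while the other selenite libraries held 2.03 to 10.2 FPKM. In MSTRG.72106.1, the intronic transcript at MS.gene06103, high Se 3 was listed at 0, while the others held 1.13 to 5.12 FPKM. In MSTRG.42531.2, of the intergenic locus on chromosome 2.4, low Se 2 held 3.52 FPKM, below the others at 8.46 to 11.1 FPKM. In MSTRG.152263.1, an intronic transcript at MS.gene36088, low Se 2 held 0.740 FPKM and the other 5 selenite libraries were listed at 0. Such a gap arises by chance in about 1 of 20 groups, and it was seen in 6 of 61 measures checked, which include the class shares and the number of detected transcripts.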

How the results depend on the processing

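The 16 transcripts that passed (14 higher, 2 lower) became 9 (8 and 1) with 0.01 added in place of 0.1, 25 (7 and 18) with 1 added, 55 (39 and 16) with no filter, 3 (2 and 1) with the mean raised to 2 FPKM, 1 (0 and 1) with no variance trend, 30 (25 and 5) with selenite as 1 group of 6, and 33 (28 and 5) at an adjusted p below 0.1. Median-of-ratios scaling gave 18, quantile normalization 17 and library weights 14. With 1 library left out the count was 1 to 542. The 2 alternatives chosen after seeing the data gave 582 (178 and 404) without control 1 and low Se 1, and 1 (0 and 1) without control 3 and low Se 3. The 1292 transcripts that did not overlap became 457 with the mean raised to 2 FPKM, 1637 to 3825 with 1 library left out, and 5159 and 3652 with those 2 pairs left out. The difference in detected transcripts of 2901 was 938 to 5134 with 1 library left out. The share of sense-overlapping transcripts differed by 0.0820 to 0.143 percentage points with 1 library left out. Without low Se 1 the difference was 0.137 (exact permutation adjusted p = 0.0357, against 0.0536 to 0.214 without another library). The smallest possible p differs between these fits, so these p-values cannot be set against each other. The share of antisense transcripts differed by -0.0639 to 0.0650, negative without control 1. The most abundant transcripts changed sign in some fits: MSTRG.105411.1 (-0.66 with quantile normalization), MSTRG.91972.1 (0.044 without control 1 and low Se 1) and MSTRG.21071.1 (-5.49 to 3.02 with 1 library left out, -6.72 without control 3 and low Se 3). None of the 16 changed direction in any alternative, which their lack of overlap between the groups nearly fixed in advance. In 185 repeats a transcript no longer passed, against 151 in which it did. The cause was not tested.

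With the replicate number as a block, 7 passed (6 higher and 1 lower). Libraries with the same number did not deviate together (correlations of -0.0302 to 0.00147 over 9 pairs), so the numbers do not pair the samples. Depth limits weak transcripts most.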

Other observations

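Sense-overlapping transcripts also took a greater part of the summed FPKM under selenite. Their share was 18.0% to 29.4% in the 6 selenite libraries, with the highest in low Se 1, and 17.1% to 17.9% in the 3 control libraries, so that the groups did not overlap. This measure was looked at after the shares of detected transcripts had been seen, and no test was run. MSTRG.100870.1 alone held 8.63% to 11.8% of the summed FPKM in selenite libraries and 6.04% to 11.1% in control libraries. The sense-overlapping transcripts other than MSTRG.100870.1 held 6.80% to 20.0% in selenite libraries and 6.80% to 11.1% in control libraries, ranges that overlapped.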
